A study of Danio rerio with 6 samples.

Results

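The phagocyte NADPH oxidase and the related Nox and Duox enzymes were followed in the RNASeq of injured and uninjured telencephalic hemispheres of the adult zebrafish. Members were the genes whose Ensembl name, read without regard to case, was *cybb*, *cyba*, *ncf1*, *ncf4*, *rac2*, *nox1*, *nox5* or *duox*, and each of these 8 names matched 1 of the 32520 genes counted. Injury was made in a single hemisphere with the needle of a syringe, and polyadenylated RNA was extracted from 3 injured and 3 uninjured (control) hemispheres at 5 days post lesion (dpl), with the contralateral side of the telencephalon serving as control. Each hemisphere gave 1 library, and the labels give no strain, genotype, sex or age and name no agent, so that injury is the only difference they record. That the control comes from a brain carrying a lesion on its other side limits it as a model of an intact animal.

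These enzymes pass electrons from NADPH across a membrane to oxygen and so make superoxide or hydrogen peroxide. In neutrophils, macrophages and microglia the catalytic subunit Nox2 (*cybb*) sits in the membrane beside p22phox (*cyba*), and it works only once cytosolic subunits, among them p47phox (*ncf1*) and p40phox (*ncf4*), and a Rac GTPase have joined it. In humans, loss of a subunit causes chronic granulomatous disease, in which engulfed microbes are not killed. Nox1 is a close relative of Nox2 known mainly from mammalian epithelia, whereas Nox5 and Duox are switched on by calcium through EF hands. In zebrafish larvae, Duox produces the hydrogen peroxide that draws leukocytes to a wound of the tail fin.

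Reads counted on genes numbered 63200617 to 91663196 in injured and 59675791 to 84610201 in control libraries. Injured replicates 1 and 3 stood apart by genes of the pineal organ and photoreceptors, whose 12 matched markers summed to 167 and 388 CPM (reads scaled to an equal total per library) in these libraries, against 17.9 CPM in injured replicate 2 and 14.9 to 17.7 CPM in control libraries. Results on the members are therefore also given with injured replicate 2 as the only injured library. Only 4 of 13 listed neuronal markers were matched by name, and their sum was 2822 to 3062 CPM in injured and 3138 to 3201 CPM in control libraries, with *map2* called lower at -0.21 (adjp = 0.0111) and 2 called lower with replicate number as a block. The block fit called 16.2% of all genes tested lower. Levels are given as CPM after TMM normalisation, which scales libraries to a common composition, and they compare libraries for one gene, not genes with each other, since transcript lengths were not used. Changes are given as the log2 FC (fold change of injured over control on the log2 scale) with its standard error (SE), and adjp is the Benjamini-Hochberg adjusted *p*-value of edgeR's quasi-likelihood test over the 22558 genes kept by its filter on low counts. The paper calls the libraries of a condition biological replicates, and the labels name no fish. With injury in a single hemisphere and 1 library per hemisphere, the libraries of a condition would come from separate fish. The SE and adjp rest on the spread between these libraries.

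All 5 genes of the phagocyte enzyme rose after injury, by 1.39-fold for *cybb*, 1.67-fold for *ncf1*, 1.96-fold for *cyba* and *rac2* and 2.23-fold for *ncf4*. In the main fit, which did not pair the libraries, none of *nox1*, *nox5* and *duox* passed the threshold. With replicate number as a block *nox1* passed it, with a negative change. All 8 members passed the filter, and 5 of 8 were called higher and 0 lower at adjp below 0.05. Over all genes tested, 11.6% were called higher, 4.82% lower and 16.5% in either direction. In the main fit *nox1*, with a negative change, passed only at an unadjusted *p*-value below 0.05, a cutoff whose share over all genes was not taken. DESeq2 with the same adjustment also called 5 members higher and 0 lower. Over all genes it called 3029 higher and 1937 lower. For the same 5 members the 3 injured libraries were all above the 3 control libraries, as they were for 20.3% of genes tested, and all below them for *nox1*, as for 15.5% of genes tested. The median log2 FC was 0.97 over the 5 phagocyte genes and -0.24 over the other 3, against -0.0038 over all genes tested.

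**Figure D1:**
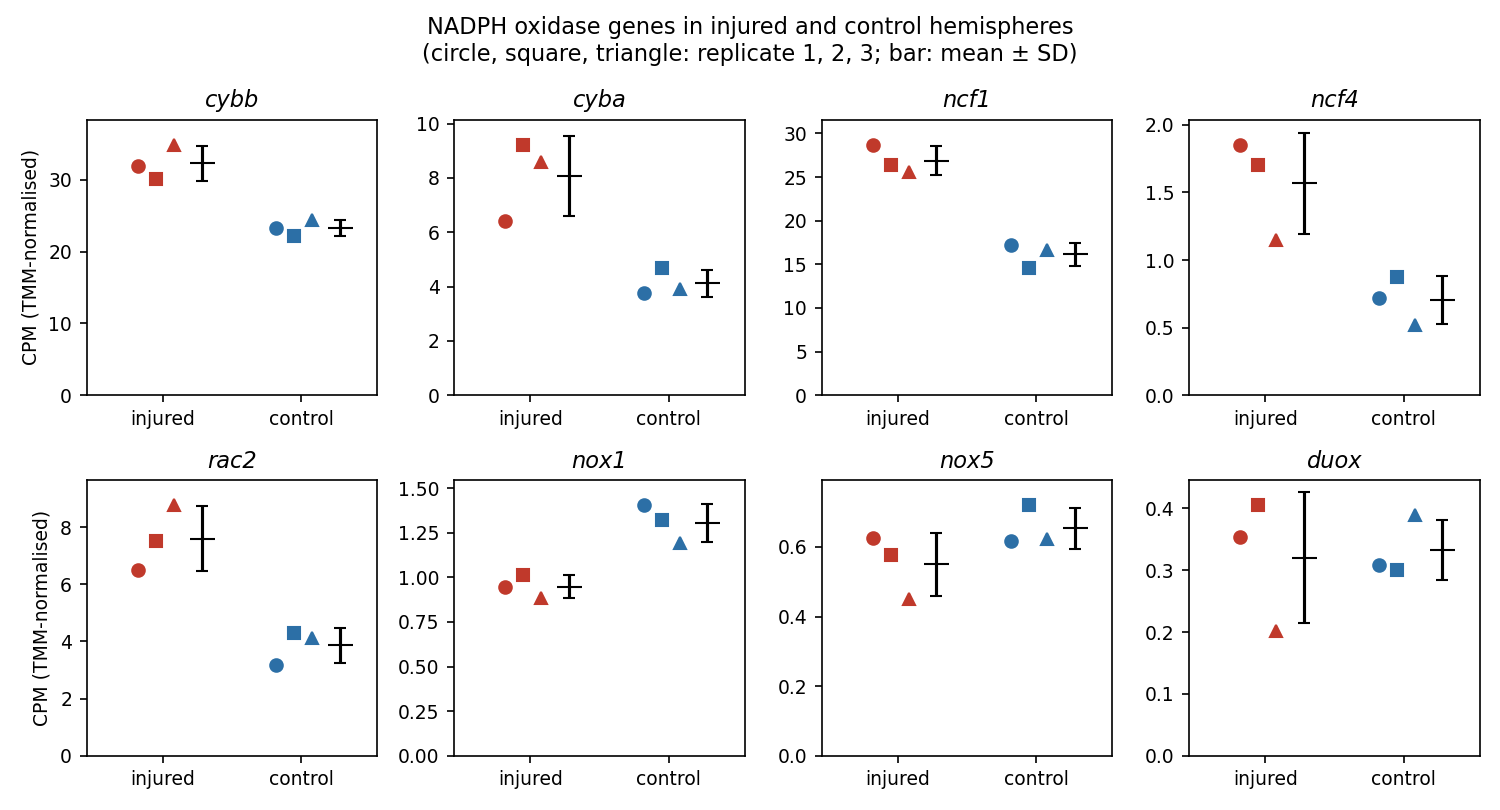
CPM (vertical axes, each starting at 0) of the 8 members in the 3 injured (red) and 3 control (blue) libraries, with replicate 1, 2 and 3 as circle, square and triangle and the mean ± SD as a black bar. The 3 injured libraries sit above the 3 control libraries for *cybb*, *cyba*, *ncf1*, *ncf4* and *rac2*, below them for *nox1*, and among them for *nox5* and *duox*.

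The membrane core of the phagocyte oxidase was higher after injury. The catalytic subunit *cybb* (ENSDARG00000056615) was at 32.0, 30.1 and 34.9 CPM in injured replicates 1, 2 and 3, against 23.3, 22.2 and 24.5 CPM in control replicates 1, 2 and 3. The lowest injured library thus stood above the highest control library, and the spread within a condition was small, at a coefficient of variation (CV) of 7.49% in injured and 4.76% in control libraries. The log2 FC of *cybb* was 0.47 (SE 0.071, adjp = 0.00645), with a 95% interval from 0.30 to 0.64. With injured replicate 2 as the only injured library, it was 0.38 and adjp was 0.0653, so that in this fit of fewer libraries, without those high in pineal transcripts, the call was lost. With each of the 6 libraries left out in turn *cybb* stayed below 0.05 (adjp up to 0.0309).

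Its partner *cyba* (ENSDARG00000018283), without which Nox2 is unstable in mammalian phagocytes, was at 6.41, 9.23 and 8.60 CPM in injured and 3.75, 4.68 and 3.91 CPM in control replicates 1, 2 and 3. Injured replicate 1 was the lowest of the injured libraries and still above all controls. This gave a log2 FC of 0.97 (SE 0.16, adjp = 0.00858), whose 95% interval from 0.60 to 1.34 overlapped that of *cybb*. With injured replicate 2 as the only injured library it was 1.17 (adjp = 0.0171).

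Of the cytosolic regulators, *ncf1* (ENSDARG00000033735) encodes p47phox, the organizer that carries the complex to the membrane once it is phosphorylated. It was at 28.7, 26.4 and 25.6 CPM in injured and 17.2, 14.6 and 16.6 CPM in control libraries, with CVs of 6.07% and 8.40%. The conditions did not overlap, and *ncf1* had the lowest adjp of the members. Its log2 FC of 0.74 (SE 0.081, adjp = 0.00239) had a 95% interval from 0.55 to 0.93, and was 0.72 (adjp = 0.0236) with injured replicate 2 as the only injured library.

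The GTPase *rac2* (ENSDARG00000038010), the Rac of blood cells and, in zebrafish, a gene needed for neutrophil migration, was at 6.51, 7.52 and 8.77 CPM in injured and 3.17, 4.29 and 4.13 CPM in control libraries. Its log2 FC of 0.97 (SE 0.16, adjp = 0.00805) equalled that of *cyba* to 2 decimals. With injured replicate 2 as the only injured library it was 0.97 (adjp = 0.0439). The conditions did not overlap, and the lowest injured library, replicate 1, was the one that was also lowest for *cyba*.

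The gene for p40phox, *ncf4* (ENSDARG00000040812), which binds phosphatidylinositol 3-phosphate on phagosomes, had the largest fold change of the members and the highest adjp among those called. It was counted with 157, 160 and 74 reads in injured and 42, 73 and 40 reads in control libraries, or 1.85, 1.71 and 1.15 CPM against 0.720, 0.876 and 0.518 CPM. Injured replicate 3 was lowest of the injured libraries and lay closest to the controls. The CV was 23.8% in injured and 25.5% in control libraries, above the 9.17% and 14.3% that counting error alone would give at these read numbers. Its log2 FC was 1.16 (SE 0.27, adjp = 0.0280), with a 95% interval from 0.53 to 1.78. The call was lost without injured replicate 1 (adjp = 0.0743), injured replicate 2 (adjp = 0.0811), control replicate 1 (adjp = 0.0845) or control replicate 3 (adjp = 0.0878), and with injured replicate 2 as the only injured library (adjp = 0.0801).

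Among the other catalytic oxidases, *nox1* (ENSDARG00000087574) was lower in every injured library and was not called. It was counted with 80, 95 and 57 reads in injured and 82, 110 and 92 reads in control libraries, or 0.945, 1.01 and 0.883 CPM against 1.41, 1.32 and 1.19 CPM. The conditions did not overlap, and the CV of 6.87% in injured and 8.24% in control libraries was no larger than the counting error of 11.6% and 10.3%. The log2 FC was -0.46 (SE 0.16, adjp = 0.0996), with a 95% interval from -0.84 to -0.080. With injured replicate 2 as the only injured library the log2 FC was -0.36. With each library left out in turn *nox1* was not called (adjp 0.147 to 0.242). With replicate number as a block, which sets injured and control libraries of the same number against each other, *nox1* passed the threshold (adjp = 0.0433). In that fit 16.2% of all genes were called lower and 19.9% higher.

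Transcripts of *nox5* (ENSDARG00000079773) were scarce, with 53, 54 and 29 reads in injured and 36, 60 and 48 reads in control libraries. The 0.626, 0.576 and 0.449 CPM of the injured libraries overlapped the 0.617, 0.720 and 0.622 CPM of the control libraries. Its value for injured over control was a log2 FC of -0.24 (SE 0.21, adjp = 0.509), and the 95% interval from -0.74 to 0.26 left room for changes between 0.598-fold and 1.19-fold. With injured replicate 2 as the only injured library the log2 FC was -0.17.

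For *duox* (ENSDARG00000062632) there were 30, 38 and 13 reads in injured and 18, 25 and 30 reads in control libraries. At 0.354, 0.405 and 0.201 CPM, injured libraries included both the highest and the lowest of the 6 values, with 0.309, 0.300 and 0.389 CPM in control libraries between them. The log2 FC of -0.036 (SE 0.31, adjp = 0.958) had a 95% interval from -0.77 to 0.70, that is from 0.585-fold to 1.63-fold, so that a change of the size seen for *cybb* (0.47) lay within the interval and could not be told from none at this depth. Its sign depended on the library set and scaling, with 0.19 without injured replicate 3, 0.091 without control replicate 3 and 0.020 with library size alone. With injured replicate 2 as the only injured library the log2 FC of *duox* was 0.29. The gene *DUOXA1* (ENSDARG00000078962), named like the factor that matures Duox in mammals and looked up after the values of *duox* were seen, had only 48 reads in injured and 51 in control libraries and a log2 FC of -0.21 (SE 0.29, adjp = 0.689).

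**Figure D2:**
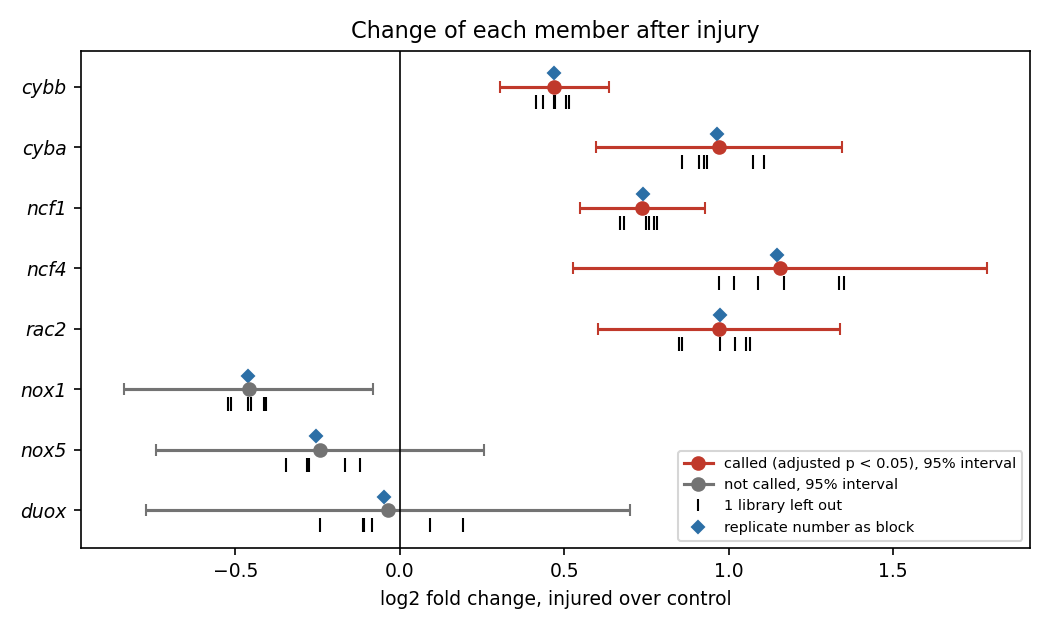
Log2 FC of injured over control (horizontal axis) for the 8 members, with the 95% interval of edgeR's fit (red: called, grey: not called), the values with 1 library left out (ticks under each point) and with replicate number as a block (blue diamonds). The 5 phagocyte members lie between 0.47 and 1.16 with intervals above 0, and *duox* has ticks on either side of 0.

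Libraries of the same number were also compared gene by gene. The difference of log2 CPM between injured and control was positive in 3 of 3 numbers for each phagocyte member, between 0.44 and 0.51 for *cybb*, 0.62 and 0.85 for *ncf1*, 0.77 and 1.14 for *cyba*, 0.81 and 1.08 for *rac2* and 0.96 and 1.35 for *ncf4*. For *nox1* it was negative in 3 of 3, between -0.57 and -0.38, whereas *nox5* was positive in 1 and *duox* in 2 of 3. For the phagocyte members and *nox1* the conditions did not overlap. Their signs therefore could not differ between numbers and are no separate result. With replicate number as a block, the adjp of the 5 phagocyte members lay between 2.07e-04 and 0.00192.

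The members of the phagocyte enzyme did not all rise by the same amount in the point estimates, and the ratio of their reads within a library was compared for all 10 pairs of the 5 genes. Such ratios do not depend on how libraries are scaled. Only that of *cybb* to *rac2* did not overlap between conditions, with log2 ratios of 2.30, 2.00 and 1.99 in injured and 2.87, 2.37 and 2.56 in control libraries. The difference was -0.51, at the smallest value of 0.1 that an exact two-sided permutation test of 3 against 3 libraries can give (0.4 after adjustment over the 10 pairs). The log2 ratio of *cybb* to *cyba* was 2.01 ± 0.31 in injured and 2.51 ± 0.22 in control libraries (SD, n = 3 each), with an overlap (exact permutation test, p = 0.2, adjusted 0.4). At the other extreme, *cyba* to *rac2* was 0.082 ± 0.18 in injured and 0.097 ± 0.16 in control libraries (SD, n = 3 each), a difference of -0.015. Within replicate numbers, injured minus control was negative in 3 of 3 for each of the 4 ratios with *cybb* on top, between -0.89 and -0.11, and 7 of the 10 pairs had a single sign in all 3 numbers. For *cybb* to *rac2* the single sign follows from the lack of overlap. An exact test that flips the signs of 3 such differences cannot give less than 0.25, so that no pair can pass 0.05 by either exact test.

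Where genes lie across one another, a read that falls on both is counted for neither in union mode. No source used here says whether reads were counted by strand. In the RefSeq annotation of a later assembly (GRCz12tu) all 8 members were found, and the spans of 3 of them, introns included, overlapped another gene. These were *cybb* with *grpr* (1452 bases), *ncf4* with *pvalb7* (37489 bases) and *nox1* with *cstf2* (8 bases). Whether reads from the overlapping stretches affected the counts of the members was not tested. Of these neighbours *pvalb7* was called lower and the others were not called. The log2 FC was -0.14 (adjp = 0.275) for *grpr*, a bombesin-type receptor, and -0.032 (adjp = 0.677) for *cstf2*, an mRNA 3′ end processing factor. For *pvalb7*, a parvalbumin with 9294 reads in injured and 12059 in control libraries, it was -0.52 (adjp = 0.0334). The reads of *ncf4* numbered 391 in injured and 155 in control libraries.

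Genes of leukocytes moved with the phagocyte oxidase. Of 26 listed microglia and macrophage markers 21 were matched and tested. The list includes *ptprc* and *lcp1*, which mark leukocytes in general. Of the 21, 19 were called higher and 0 lower, against 11.6% and 4.82% of all genes tested. Their median log2 FC was 1.07, and their sum was 2297 to 2753 CPM in injured and 773 to 838 CPM in control libraries. Of that sum, *apoeb* alone averaged 1363 CPM in injured and 259 CPM in control libraries. The pan-leukocyte gene *ptprc* (CD45) was at 36.7, 42.3 and 38.7 CPM in injured and 20.0, 22.3 and 21.9 CPM in control libraries, a log2 FC of 0.87 (SE 0.073, adjp = 0.00104). Microglial *csf1ra*, the receptor for the growth factor of macrophages, changed by 1.06 (SE 0.11, adjp = 0.00182). For *lcp1* (L-plastin), which bundles actin in leukocytes, it was 0.98 (SE 0.18, adjp = 0.0133), and the call was lost without control replicate 3 (adjp = 0.0565). In bulk tissue, more cells of a type and more RNA per cell cannot be told apart.

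Fewer markers could be tested for neutrophils, the other main site of this enzyme. Of 12 listed neutrophil markers 8 were matched and 6 tested, 3 were called higher and 0 lower (4 and 1 with replicate number as a block), and their sum was 87.4 to 103 CPM in injured and 43.0 to 47.4 CPM in control libraries. The neutrophil lysozyme gene *lyz* had no read in any library, and *mmp13a* was filtered out with 32 reads in injured and 5 in control libraries. Those called were *mmp9*, a matrix metalloproteinase also made by other cells, *csf3r*, the receptor for granulocyte colony stimulating factor, and the proteoglycan gene *srgn*, with log2 FCs of 2.32 (adjp = 9.73e-04), 1.49 (adjp = 2.45e-04) and 0.55 (adjp = 0.00519). The listed gene *npsn* had a negative log2 FC of -0.27 (adjp = 0.291), and was the 1 called lower with the block (adjp = 0.0479). Of 11 lymphocyte markers tested, 2 were called higher (*cd8b* and *ZAP70*, of T cells) and 0 lower, and 6 were called higher with replicate number as a block. Over all genes tested, 11.6% were called higher and 4.82% lower, and 19.9% and 16.2% with the block. With libraries left out in turn *cd8b* kept its call in 1 of 6 fits (adjp up to 0.0858) and *ZAP70* in 5 (adjp up to 0.0594). Of 4 erythrocyte markers tested, 0 were called by edgeR, 0 also at an unadjusted *p*-value below 0.05, and their sum was 47.5 to 67.7 CPM in injured and 51.1 to 70.4 CPM in control libraries.

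Most tested markers of radial glia, oligodendrocytes and endothelium and mural cells rose as well. Of 4 radial glia markers tested 3 were called higher, among them *gfap* of glial filaments at 1.17 (SE 0.11, adjp = 0.00128), and their sum was 454 to 632 CPM in injured and 284 to 331 CPM in control libraries. Of 10 oligodendrocyte markers 6 were called higher, including the myelin gene *plp1b* at 1.03 (SE 0.12, adjp = 0.00323), with a sum of 599 to 829 CPM in injured and 445 to 590 CPM in control libraries. Of 9 markers of endothelium and mural cells 6 were called higher, including *pdgfrb* of pericytes at 0.92 (SE 0.12, adjp = 0.00363), with a sum of 659 to 728 CPM in injured and 483 to 502 CPM in control libraries. Of 11 markers of skin and epithelium only 2 keratin genes, *krt8* and *krt18a.1*, were called higher, where 11.6% of all genes tested were. The list summed to 223 to 275 CPM in injured and 113 to 149 CPM in control libraries. Of this, *krt8* averaged 150 CPM in injured and 77.5 CPM in control libraries, and *krt18a.1* 76.4 and 46.5 CPM. None of these 4 lists had a member called lower in the main fit. With replicate number as a block 8 oligodendrocyte markers were called higher and 1 lower (*olig1*, log2 FC -0.18, adjp = 0.0320). In that fit 19.9% of all genes tested were called higher and 16.2% lower. The rise was thus not limited to leukocyte genes. Of 13 listed neuronal markers 4 were tested, with 0 called higher and 1 lower, where 11.6% and 4.82% of all genes tested were. So few markers cannot show whether neuronal genes differed from all genes. The part of any of these cells in the rise of the oxidase genes was not tested.

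Set against *ptprc* and *csf1ra*, *cybb* was lower in each injured than in each control library, and against *lcp1* the conditions overlapped. Within libraries, reads of the 5 phagocyte members were set against those of *lcp1*, *ptprc* and *csf1ra*, a display chosen after the values had been seen and given without a test. The log2 ratio of *cybb* to *ptprc* was -0.20, -0.49 and -0.15 in injured and 0.22, -0.0062 and 0.16 in control libraries. That of *cybb* to *csf1ra* was -0.79, -0.75 and -0.51 in injured and -0.32, -0.070 and 0.15 in control libraries. Conditions did not overlap for 3 of the 15 ratios, these 2 and that of *ncf1* to *csf1ra*, and in all 3 the injured libraries were lower. For *cyba*, *rac2* and *ncf4* all ratios overlapped, with differences of condition means between -0.11 and 0.27.

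**Figure D3:**
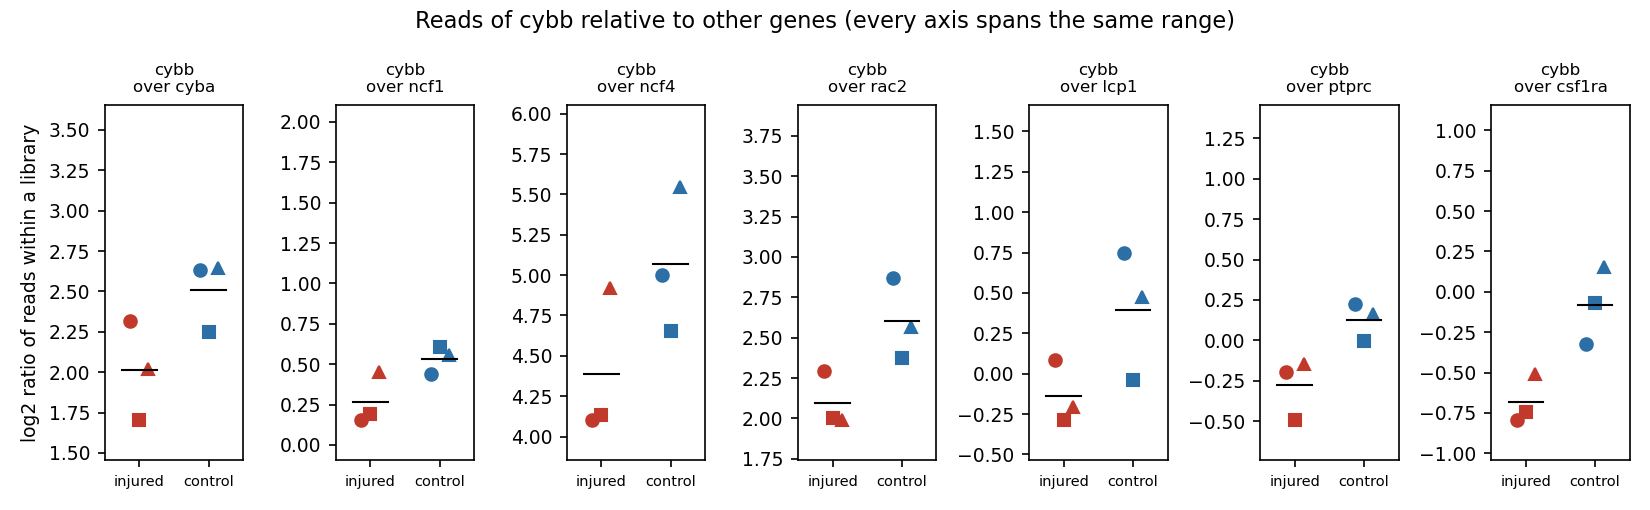
Log2 ratio of the reads of *cybb* to those of another gene in the same library (vertical axes, all spanning the same range) for the 3 injured (red) and 3 control (blue) libraries, with replicate 1, 2 and 3 as circle, square and triangle and the condition mean as a line. The means are lower in injured libraries in all 7 panels, and the conditions do not overlap for *rac2*, *ptprc* and *csf1ra*. All 7 share *cybb*, whose log2 FC was below that of each gene it is set against, so that they are not separate results. The ratios to *lcp1*, *ptprc* and *csf1ra* were chosen after the values had been seen.

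Beyond the members, a list of partner subunits and other oxidase genes was examined, of which 10 of 16 were matched and 9 tested. Called higher was 1 of the 9, against 11.6% of all genes tested. Called lower were 0, against 4.82%, and the median log2 FC was 0.25. The gene called was that of the ubiquitous GTPase *rac1a*, at 51.0, 60.3 and 53.4 CPM in injured and 38.0, 40.6 and 38.3 CPM in control libraries. Its conditions did not overlap, and its log2 FC of 0.50 (SE 0.071, adjp = 0.00531) kept an adjp below 0.05 whichever library was left out (up to 0.0285).

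The remaining partners did not pass the threshold. Among them were *nox4*, a constitutively active oxidase that makes hydrogen peroxide, at 0.30 (SE 0.16, adjp = 0.237), the proton channel gene *hvcn1*, which balances the charge moved by Nox2, at 0.46 (SE 0.17, adjp = 0.115), and *cybc1*, whose mammalian product is needed to make the Nox2 and p22phox pair, at 0.25 (SE 0.12, adjp = 0.216). All 3 were higher in each injured than in each control library, as were 7 of the 9 tested partners in all and 20.3% of all genes tested. The Nox1 organizers *noxo1a* and *noxo1b* had log2 FCs of -0.22 (adjp = 0.291) and 1.03 (adjp = 0.168), and the Nox1 activator gene *noxa1* was filtered out with 13 reads in injured and 15 in control libraries. With replicate number as a block 5 partners were called higher and 1 lower, where 19.9% of all genes tested were called higher and 16.2% lower. With library size alone 3 were called in all.

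Genes acting ahead of oxidase assembly, in receptor signalling, lipid kinases and Rac activation, formed the second list, of which 14 of 24 were matched and all 14 tested. Of these, 8 were called higher and 1 lower, against 11.6% and 4.82% of all genes tested, and the median log2 FC was 0.41. Calls that held with each library left out were those of *hck* and *lyn*, Src family kinases of myeloid cells, at 1.38 (SE 0.13, adjp = 0.00160) and 1.26 (SE 0.083, adjp = 7.05e-04), of the integrin gene *itgb2*, the beta chain of leukocyte integrins, at 1.34 (SE 0.12, adjp = 0.00121), and of *fcer1gl*, the signalling chain of Fc receptors, at 1.13 (SE 0.079, adjp = 7.36e-04). For the Tec kinase gene *btk* (2.30-fold, adjp = 0.0335), the phosphoinositide 3-kinase genes *pik3r5* (1.91-fold, adjp = 0.0136) and *pik3cg* (1.32-fold, adjp = 0.0169) and the phospholipase gene *plcg2* (1.33-fold, adjp = 0.0417) all injured libraries were above all control libraries, but the calls were not kept with every library left out. The call of *btk* held only without control replicate 2 (adjp up to 0.111 otherwise), and that of *pik3r5* was lost without control replicate 3 (adjp = 0.0536). That of *plcg2* was lost without injured replicate 1 or 2 or control replicate 1 or 3 (adjp up to 0.133), and that of *pik3cg* without injured replicate 2 or control replicate 1 or 3 (adjp up to 0.0619). The kinase gene *pik3cd* was called lower at -0.21 (SE 0.051, adjp = 0.0330), a call that held only without control replicate 1 when libraries were left out (adjp up to 0.0961 otherwise). The number called was 4 without control replicate 3 and 5 without injured replicate 2. With replicate number as a block 10 activators were called higher and 3 lower, against 19.9% and 16.2% of all genes tested.

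Genes that make, use or remove peroxide and superoxide were examined last, with 25 of 35 matched and 24 tested. Only *gpx7* and *cat* were called, both higher, where 11.6% of all genes tested were called higher. The median log2 FC of the list was 0.077. Catalase (*cat*), which splits hydrogen peroxide, averaged 112 CPM in injured and 96.6 CPM in control libraries, which is 0.22 on the log2 scale (SE 0.040, adjp = 0.0127). The call was lost without control replicate 1 (adjp = 0.0532) or control replicate 3 (adjp = 0.0551). The peroxidase gene *gpx7*, whose product works in the endoplasmic reticulum, was scarce, with 124 reads in injured and 38 in control libraries and a log2 FC of 1.55 (SE 0.25, adjp = 0.00759). The superoxide dismutase genes *sod1* and *sod2*, which were not called, had log2 FCs of -0.11 (SE 0.083, adjp = 0.423) and -0.16 (SE 0.055, adjp = 0.0910). The sum over the list was 869 to 907 CPM in injured and 870 to 905 CPM in control libraries, so that these ranges lay almost on top of each other, unlike those of the phagocyte oxidase genes, whose sum was 74.9 to 79.0 CPM in injured and 46.7 to 49.6 CPM in control libraries. Abundant genes weigh most in such a sum. For 8 of the 24 genes all injured libraries were above all control libraries, as for 20.3% of all genes tested, and for *sod2* all were below. With replicate number as a block 6 of the 24 genes of this list were called higher and 3 lower, close to the 19.9% and 16.2% of all genes tested. The count without injured replicate 1 or injured replicate 3 was 4, and without control replicate 1 or control replicate 3 it was 1.

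**Figure D4:**
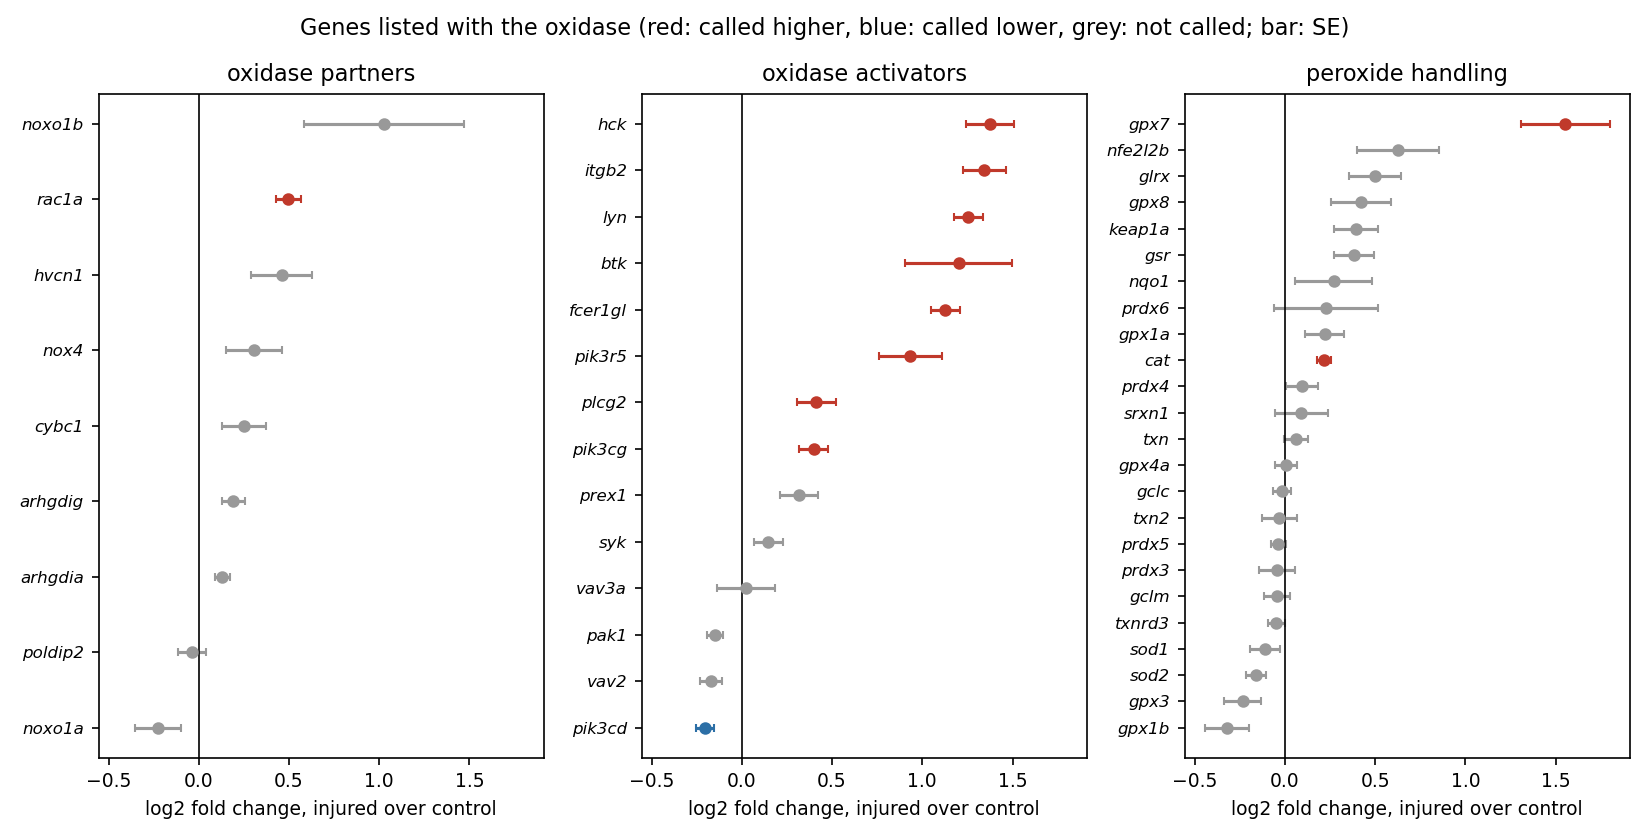
Log2 FC of injured over control (horizontal axis, bars: SE) for the tested genes of the lists of oxidase partners, oxidase activators and peroxide handling, in red where called higher, in blue where called lower and in grey where not called. Activators include 8 red points and 1 blue point of 14, partners 1 red point of 9 and peroxide handling 2 red points of 24.

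The genes whose profile over the 6 libraries was most like that of *cybb* were *STK38*, *zgc:162730* and *EEPD1*, with Pearson's r of log2 CPM of 0.998, 0.997 and 0.996 among 17292 genes with a mean normalised count above 100. The 6 libraries share 2 conditions and 224 genes had an r above 0.95, so that many other genes were nearly as alike. Their own log2 FCs were 0.65, 0.93 and 0.42.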

How the data were processed

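Raw counts per gene were deposited by the authors, 1 file per library, after STAR mapping to GRCz11, with only the best-scoring locus of each multiply mapping read retained, and HTSeq counting (union mode). Tool versions, the strand setting and the annotation release are not given in the sources used here. Reads on no gene or on several genes, 28.8% to 31.2% of a library, were left out. Counts were tested in R 4.3.3 with edgeR 4.0.16 (filterByExpr, TMM, glmQLFit and glmQLFTest, 1 term for condition, Benjamini-Hochberg adjusted threshold 0.05). Dividing the size of a log2 fold change by the root of its F statistic gave the SE, and 95% intervals use it with the t quantile at the degrees of freedom of the fit. Ratios within a library used a prior count of 0.5. Symbols came from a table of Ensembl names, in which 147 of 214 list entries matched 1 gene. The main edgeR fit was tested on simulated counts in which 200 genes were changed. It recovered 86% of them, and 6.01% of its calls were false. The simulation had no effect of replicate number and changed no scarce genes, and the other fits given here were not simulated.

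By rule, the names given are the 8 members, the called genes of the 3 lists by size of change (at most 8 per list), *nox4*, *cybc1*, *rac1a*, *hvcn1* and *cat*, the leukocyte genes *lcp1*, *ptprc*, *csf1ra* and *lyz*, and the 3 genes most like *cybb*. The other genes named were chosen after their values were seen. Members and lists were chosen with earlier results of these data known. The entries *duox2*, *duoxa*, *rac1b*, *mpx* and *mpeg1.1* were among those that matched no name and were not analysed here, and 1 further gene is not reported here.

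Injured and control libraries sharing a replicate number had residuals whose correlation over genes was 0.523, 0.398 and 0.322, and for differing numbers it was -0.364 to -0.0751. Residuals were centred within each condition, so that positive values for the same number bring negative ones on balance for differing numbers. The contrast between them is therefore partly built in. Since all 3 exceeded 0.1, replicate number was used as a block in an alternative fit, although no source says that a number marks a fish. The main fit did not pair the libraries. These are correlations across genes, which are no independent replicates. Alternatives were replicate number as a block, RLE normalization, library size alone, no filter, DESeq2 1.42.0 with Benjamini-Hochberg or, as in the study, Bonferroni adjustment, each library left out, and injured replicate 2 alone against the controls, where the lone library is assumed to vary like the controls.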

Additional observations from a re-analysis of the deposited data

How the results depend on the processing

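RLE normalization and no filter changed no call of a member, and kept each count of calls within 1.5 times. With replicate number as a block, 4490 genes were called higher and 3651 lower, against 2628 and 1087 without it, 1 member was called lower (*nox1*, -0.46) and 6 partners and 9 peroxide genes were called, and no other member's call changed. With library size alone 470 genes were called lower, 3 partners and 5 peroxide genes were called, and *duox* was at 0.020. DESeq2 called 1937 genes lower and 6 peroxide genes. With Bonferroni adjustment it called 1046 genes higher and 235 lower, 4 activators and 0 peroxide genes, and *ncf4* (1.14) was no longer called. The study, which names the same tool and adjustment, reports more genes in each direction and more of them lower than higher. With injured replicate 2 as the only injured library 1448 genes were called higher and 290 lower, 3 members were called higher, 5 activators and 0 peroxide genes were called, *cybb* (0.38) and *ncf4* (1.28) were not called and *duox* was at 0.29. With each library left out, 1419 to 2106 genes were called higher, 307 to 911 lower, 4 to 5 members higher, 4 to 8 activators and 1 to 4 peroxide genes, and the log2 fold change was 0.97 to 1.35 for *ncf4* and -0.24 to 0.19 for *duox*. The cause of these differences was not tested. Depth limits *nox5* and *duox*, whose counting error alone was 14.7% to 20.7% of their level.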
